A study of Mus musculus with 6 samples.

Results

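Expression of 31 genes of the lysosome was compared between 2 populations of F4/80+ cells from mouse bone marrow. The genes were taken by symbol and code for 10 glycosidases, 3 sulfatases, 7 lipid enzymes and carriers, 3 proteins counted here as proteases and progranulin, and 8 membrane proteins. Cathepsins were not among them. All 31 were in the deposited table of 11489 genes, and all 31 were among the 10964 genes whose mean reached 1 FPKM (fragments scaled to gene length and to library size) over the libraries, which were tested.

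The Epor-eGFP+ group (3 libraries) and the Epor-eGFP- group (3 libraries) were both sorted by flow cytometry on F4/80, the surface protein encoded by Adgre1, and separated by eGFP fluorescence from a reporter of Epor, the erythropoietin receptor gene. Both carry the label of erythroblastic island macrophages, the macrophages around which red cell precursors mature. Strain, age, any treatment, the build of the reporter allele and the number of animals behind a library do not appear in the labels. The p-values therefore measure the spread between libraries, which may be technical.

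Lysosomes are acidic organelles in which soluble hydrolases break down proteins, glycans and lipids. Most of these enzymes receive a mannose 6-phosphate tag in the Golgi, which receptors use to carry them to the lysosome, while heavily glycosylated membrane proteins line the organelle and transporters release the products. The transcription factors of the TFEB family induce many lysosomal genes through a promoter element with the core CACGTG. In macrophages the lysosome digests engulfed cells, and macrophages of erythroblastic islands take up the nuclei that erythroblasts expel.

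Epor was at 3.43 to 7.78 FPKM in Epor-eGFP+ libraries, against 0.217 to 0.414 FPKM in Epor-eGFP- libraries, and Adgre1 was at 117 to 241 FPKM in Epor-eGFP+, against 132 to 139 FPKM in Epor-eGFP- libraries. All 11 macrophage markers were present in both groups, and 8 were called higher. Sums over the 11 were 2240.4 to 7402 FPKM in Epor-eGFP+, against 619 to 843 FPKM in Epor-eGFP- libraries. Csf1r alone had a lower mean in Epor-eGFP+ (231 FPKM, against 288 FPKM in Epor-eGFP- libraries). It was called lower only with the replicate block described below (limma adjusted p = 0.0145). C1qa, C1qb and C1qc made up most of the sum in Epor-eGFP+ library 2, at 1616, 1358 and 1604 FPKM. Epor-eGFP+ library 2 stood apart with the highest macrophage sum, ahead of 3489.5 FPKM in library 0 and 2240.4 FPKM in library 1. Of 10 neutrophil markers, 9 were lower, with sums of 13156 to 17107 FPKM in Epor-eGFP+, against 24574 to 38825 FPKM in Epor-eGFP- libraries. These sums exceeded the macrophage sum in every library, although the label names macrophages alone. S100a8 and S100a9 made up much of them, at 3322 and 4791 FPKM in Epor-eGFP+ library 2. Sums over different lists of genes do not give the share of cells of each type. All 7 monocyte markers were lower (1506 to 1939 FPKM in Epor-eGFP+, against 3867 to 4779 FPKM in Epor-eGFP- libraries), and all 4 promyelocyte markers were higher (7532 to 9353 FPKM in Epor-eGFP+, against 1428 to 2673 FPKM in Epor-eGFP- libraries). Of 9 erythroid markers, 8 were in the table and 6 were higher (251 to 341 FPKM in Epor-eGFP+, against 36.2 to 42.5 FPKM in Epor-eGFP- libraries). Of 9 osteoclast markers, 7 were in the table and 5 tested, with 3 higher and 1 lower (153 to 290.4 FPKM in Epor-eGFP+, against 95.5 to 121 FPKM in Epor-eGFP- libraries), and Dcstamp was listed at 0 in 2 Epor-eGFP- libraries. Of the tested genes of the remaining lists, 1 of 7 eosinophil markers was higher and 4 lower, 2 of 6 B lineage markers were higher, 1 of 4 T and NK markers was higher and 3 lower, 1 of 5 megakaryocyte markers was higher, 2 of 3 dendritic markers were higher and 1 lower, and 3 of 4 markers of stroma and endothelium were higher. Prg2, an eosinophil marker, was listed at 0 in Epor-eGFP+ library 0, beside 10348 FPKM in library 1 and 11088 FPKM in library 2 and against 7567 to 12114 FPKM in Epor-eGFP- libraries, and whether that 0 is a failed estimate was not tested. None of the 31 genes was listed at 0 in any library. In sorted pools of this kind, fewer cells of a type and less RNA per cell cannot be told apart.

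The differences between the groups went both ways among the lysosomal genes. Lgmn, Lipa, Gaa, Tpp1 and Glb1 rose in Epor-eGFP+ cells, and Cln3, Ids, Lamp2 and Manba fell, by limma with Benjamini-Hochberg adjustment over all genes tested. That is 5 of 31 genes higher (16.1%), where 22.7% of all genes tested were higher, and 4 of 31 lower (12.9%), where 26.3% of all genes were lower. The remaining 22 had no call. In either direction 9 of 31 were called, against 49.0% of all genes tested. Counts by class of protein below are to be read beside these shares. Of the 9, Lgmn and Lipa were higher by at least 1 on the log2 scale, a size that 4.92% of all genes tested reached upward with a call and 4.39% downward. The median log2 fold change, Epor-eGFP+ minus Epor-eGFP- on the log2(FPKM + 1) scale, was 0.06 over the 31 genes and −0.01 over all genes tested. The groups did not overlap in 6 genes that were higher and 6 that were lower, against 28.4% and 31.9% of all genes tested (60.4% in either direction). In those 12 genes an exact two-sided permutation test gave p = 0.1, the smallest that 3 against 3 libraries allow.

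Libraries that share a number deviated together from their group means, and a fit with the number as a replicate block moved both counts. With the block, 9 of the 31 genes were higher (29.0%, against 28.0% of all genes) and 10 were lower (32.3%, against 30.4% of all genes), and 58.4% of all genes were called in either direction. All 9 genes called without the block were called with it. The 10 gained genes were Arsb, Hexa, Naglu and Cd63, which were higher, and Npc2, Man2b1, Laptm5, Sgsh, Ppt1 and Fuca1, which were lower. Each of these 10 differed in the same direction in all 3 pairs of same-numbered libraries, as did 23 of the 31 genes in all. The block fit favours genes of this kind, so the shared direction is no separate support for the calls. Scaling also moved the split of calls: with libraries rescaled to a common total or to a common upper quartile, 7 of the genes were higher and 3 lower, and with quantile normalization 6 were higher and 3 lower. Single libraries mattered as well. The count of lower genes was 1 without Epor-eGFP+ library 0, 2 without Epor-eGFP+ library 1, 2 without Epor-eGFP- library 2 and 6 without Epor-eGFP+ library 2. Without both libraries numbered 0, Gaa was the 1 gene called higher by limma and 0 were lower, where 4 were higher and 2 lower at an unadjusted p below 0.05.

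**Figure D1:**
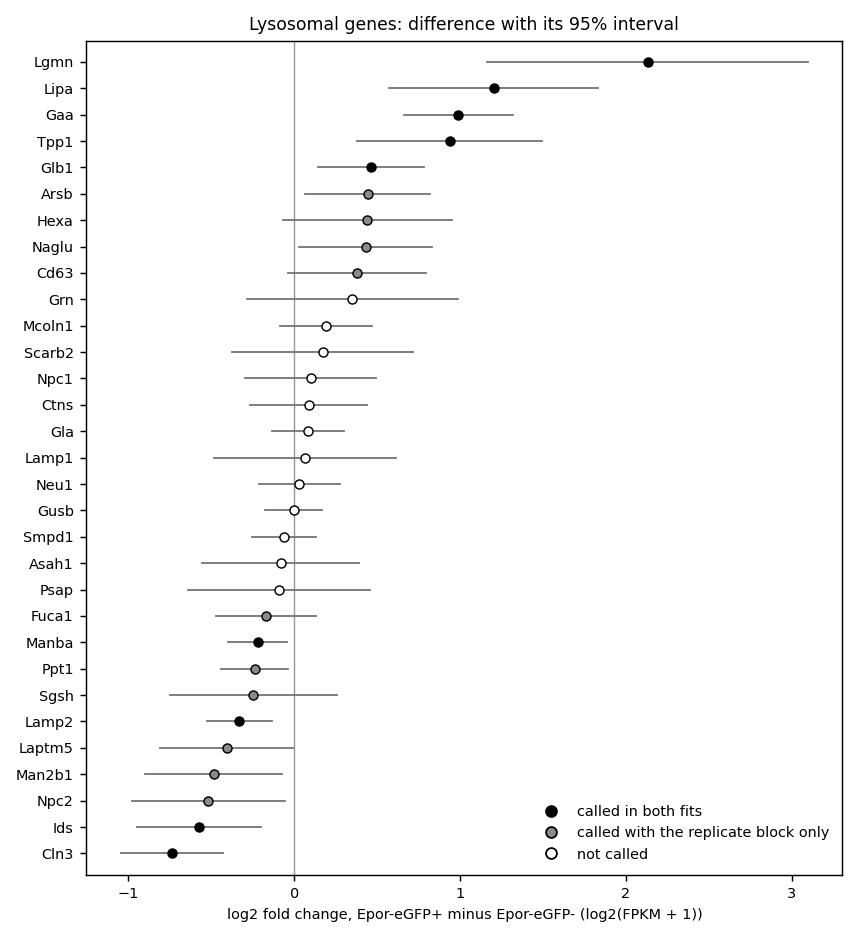
Log2 fold change of each of the 31 lysosomal genes (points, Epor-eGFP+ minus Epor-eGFP-, log2(FPKM + 1)) with its 95% confidence interval from limma without a block (lines). Black points mark the 9 genes called in both fits, grey points the 10 called with the replicate block only and open points the 12 without a call; the values run from 2.13 for Lgmn at the top to −0.74 for Cln3 at the bottom.

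The 31 genes were abundant in both groups. Their median FPKM, from the mean of each gene over the 6 libraries, was 50.1, against 13.02 over all genes tested, and 27 of the 31 lay above that second value. Psap, at 2379.7 ± 670.0 FPKM in Epor-eGFP+ and 2506 ± 512 FPKM in Epor-eGFP- libraries (SD, n = 3 each), held the top place, followed in both groups by Laptm5, Cd63, Lamp1 and Grn. Gla had the lowest level in both groups. Summed over the 31 genes, FPKM was 5801, 4929.8 and 7948 in Epor-eGFP+ libraries 0 to 2, against 5856, 5357 and 6884 in Epor-eGFP- libraries 0 to 2. As a share of all FPKM in a library these sums were 1.24, 1.06 and 1.59% in Epor-eGFP+ and 1.13, 1.06 and 1.33% in Epor-eGFP-, so the groups overlapped.

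**Figure D2:**
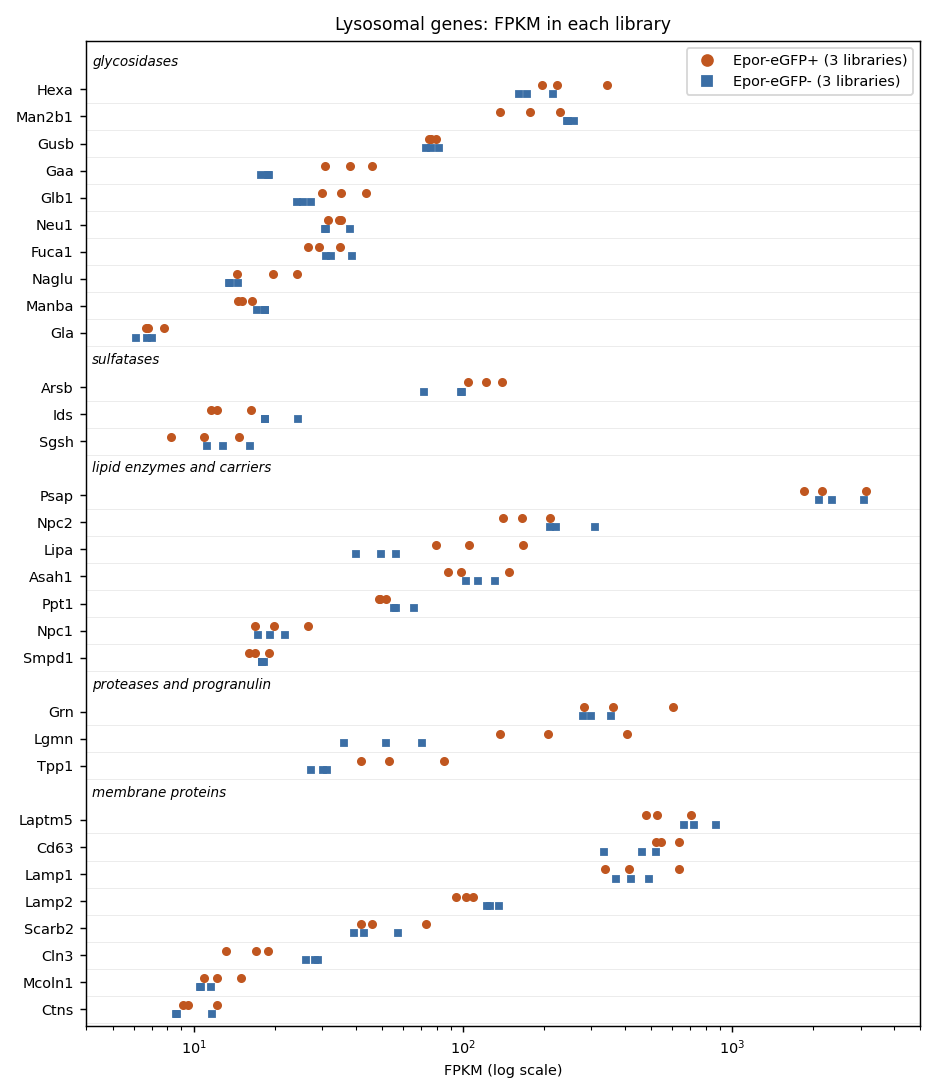
FPKM (log scale) of the 31 lysosomal genes in each library, by class of protein, with the 3 Epor-eGFP+ libraries as circles above the 3 Epor-eGFP- libraries as squares. The 2 groups are apart in 12 genes, among them Lgmn, Lipa, Tpp1 and Gaa with Epor-eGFP+ to the right and Cln3, Ids and Lamp2 with Epor-eGFP- to the right, and they overlap in the others.

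Promoter windows were available for 29 of the 31 genes from RefSeq (GRCm38.p6), each reaching from 250 bases before to 50 bases after an annotated start. The hexamer CACGTG, which reads the same on both strands and was searched alone, occurred in windows of 9 of these 29 genes (31.03%). It occurred in 12.1% of the tested genes with a window and in 8.09% of all genes with a window. Among the other lysosomal genes, listed by function in 6 lists, it occurred in 26 of 104 genes with a window (25.0%). By window the shares were 9 of 33 for the 31 genes, 10.2% of the 10794 windows of tested genes and 7.15% of all 32851 windows. The 9 genes were Lgmn, Gaa, Glb1, Naglu, Mcoln1, Gla, Lamp1, Sgsh and Cln3. Cln3, Gla, Mcoln1 and Lamp1 held at least 2 matches (4 of 29, against 8.65% of the other lysosomal genes and 1.33% of tested genes), and Lamp1 held 4, which only 8 of all windows reach. Matches stood in windows of 3 of the 5 genes that rose, 1 of the 4 that fell and 5 of the 20 genes with a window and no call. A match describes the letters in these windows and shows no binding.

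The 250 bases before the start are given for 5 of these genes, on the gene's strand from 5′ to 3′ in GRCm38.p6, with CACGTG in capitals. They are the 3 genes that rose with a match, Cln3, which fell and holds 2 matches, and Lamp1, which holds the most matches and had no call. The windows of Lgmn (chr12:102439093-102439342, minus strand) and Cln3 (chr7:126583237-126583486, minus strand) precede the inner of 2 annotated starts. Those of Gaa (chr11:119267713-119267962), Glb1 (chr9:114400828-114401077) and Lamp1 (chr8:13158911-13159160), all on the plus strand, precede the single start of each gene in the table.
Lgmn: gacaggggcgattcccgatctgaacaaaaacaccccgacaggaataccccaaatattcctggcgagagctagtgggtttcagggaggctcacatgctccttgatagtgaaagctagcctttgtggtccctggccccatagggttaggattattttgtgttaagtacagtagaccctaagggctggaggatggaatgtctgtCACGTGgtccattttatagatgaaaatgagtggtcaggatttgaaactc
Gaa: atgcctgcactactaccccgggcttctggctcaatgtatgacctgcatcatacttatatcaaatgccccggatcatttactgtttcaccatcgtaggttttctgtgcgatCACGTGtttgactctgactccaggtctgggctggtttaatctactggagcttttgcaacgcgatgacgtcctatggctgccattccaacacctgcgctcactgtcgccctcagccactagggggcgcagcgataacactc
Glb1: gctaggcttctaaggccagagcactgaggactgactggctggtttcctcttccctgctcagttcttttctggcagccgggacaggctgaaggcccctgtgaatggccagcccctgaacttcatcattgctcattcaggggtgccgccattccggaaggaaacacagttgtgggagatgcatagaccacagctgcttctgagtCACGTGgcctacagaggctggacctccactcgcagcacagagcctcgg
Cln3: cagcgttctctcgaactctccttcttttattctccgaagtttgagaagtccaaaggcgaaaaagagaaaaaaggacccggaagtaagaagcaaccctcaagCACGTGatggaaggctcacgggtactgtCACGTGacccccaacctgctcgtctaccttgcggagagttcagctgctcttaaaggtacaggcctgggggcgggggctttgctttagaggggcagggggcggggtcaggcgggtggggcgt
Lamp1: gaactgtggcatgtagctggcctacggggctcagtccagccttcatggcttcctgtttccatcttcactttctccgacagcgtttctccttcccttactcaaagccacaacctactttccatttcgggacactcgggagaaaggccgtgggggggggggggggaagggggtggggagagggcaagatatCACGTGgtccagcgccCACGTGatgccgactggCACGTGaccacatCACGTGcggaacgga
The match of Glb1 begins 48 bases and that of Lgmn 49 bases before the start, both preceded by gt. In Cln3 the matches begin 149 and 121 bases before the start, in Gaa 140, and in Lamp1 61, 45, 28 and 15. These 5 sequences were picked to hold a match and to include each outcome. Whether the hexamer bears on the differences between the groups was not tested.

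**Figure D3:**
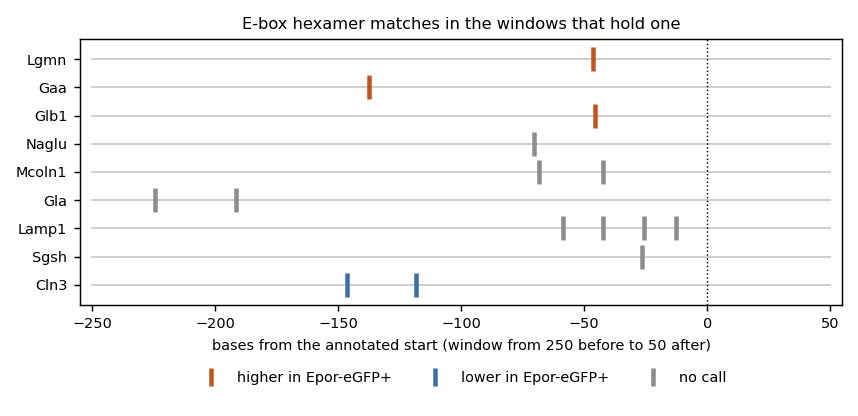
Position of each CACGTG match (ticks) in the promoter windows of the 9 lysosomal genes that hold one, in bases from the annotated start, with genes ordered by log2 fold change from top to bottom. Orange ticks belong to the 3 genes that rose, blue ticks to Cln3, which fell, and grey ticks to the 5 without a call; Lamp1 has 4 ticks within 61 bases of the start.

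Lgmn and Tpp1 are the proteases of the set, and both rose. Lgmn (chr12:102394084-102439813, minus strand, here and below from GENCODE M21 on GRCm38) encodes legumain, an endopeptidase that cuts after asparagine and matures several cathepsins. It was at 207, 137 and 407 FPKM in Epor-eGFP+ libraries 0 to 2, against 51.6, 36.2 and 70.6 FPKM in Epor-eGFP- libraries 0 to 2. The lowest Epor-eGFP+ library lay well above the highest Epor-eGFP- library, although library 2 exceeded the others in both groups. The difference was the largest of the 31 (log2 fold change 2.13, SE 0.41, limma adjusted p = 0.00567), and by level Lgmn stood at place 7 of the set in Epor-eGFP+ and at place 14 in Epor-eGFP-. Tpp1 (chr7:105744811-105752235, minus strand), tripeptidyl peptidase, which removes 3 residues at a time from the amino end of peptides, was at 53.0, 42.0 and 85.1 FPKM in Epor-eGFP+, against 30.2, 27.3 and 31.3 FPKM in Epor-eGFP- libraries (log2 fold change 0.94, SE 0.24, limma adjusted p = 0.0160). Again the groups did not overlap and Epor-eGFP+ library 2 was the highest. Grn encodes progranulin, which is split into granulins in the lysosome. Grn was at 360.4, 281 and 605 FPKM in Epor-eGFP+ libraries, against 298, 278 and 355 FPKM in Epor-eGFP- libraries, and the groups overlapped (log2 fold change 0.35, SE 0.27, limma adjusted p = 0.313, and 0.109 with the replicate block). Without Epor-eGFP+ library 2 the mean was 172 FPKM for Lgmn, 47.5 for Tpp1 and 320.5 for Grn in the other two Epor-eGFP+ libraries, and the calls of Lgmn and Tpp1 held. Neither Lgmn (limma adjusted p = 0.0698) nor Tpp1 (0.110) passed without both libraries numbered 0.

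Lgmn, Tpp1 and the macrophage markers had the same order within Epor-eGFP+, library 2 over library 0 over library 1. The macrophage sum was 7402, 3489.5 and 2240.4 FPKM in that order. This ranking of the libraries was shared by 22 of the 31 genes (71.0%, against 23.9% of all genes tested). Among them were Cln3, which fell, and Psap and Lamp1, which had no call, so the ranking does not set apart the genes that rose. The part of macrophage content in the rise of Lgmn and Tpp1 was not tested.

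Among the lipid enzymes and carriers, Lipa rose and the others had no call without the block. Lipa (chr19:34492318-34527474, minus strand) encodes lysosomal acid lipase, which frees cholesterol and fatty acids from cholesteryl esters and triglycerides. It was at 106, 79.5 and 167 FPKM in Epor-eGFP+ libraries 0 to 2, against 49.6, 40.0 and 56.4 FPKM in Epor-eGFP- libraries 0 to 2, with no overlap (log2 fold change 1.20, SE 0.27, limma adjusted p = 0.00988). It lost the call without both libraries numbered 0 (limma adjusted p = 0.0905). The freed cholesterol leaves the lysosome through Npc2, a soluble carrier, and Npc1, a membrane protein. Npc2 was at 166, 141 and 211 FPKM in Epor-eGFP+, against 222, 211 and 311 FPKM in Epor-eGFP- libraries. Each Epor-eGFP+ library was below the Epor-eGFP- library of its number, but the highest Epor-eGFP+ library was just above the lowest Epor-eGFP- library (log2 fold change −0.52, SE 0.19, limma adjusted p = 0.0634, and 0.00314 with the replicate block). Npc1 was at 20.0, 16.9 and 26.7 FPKM in Epor-eGFP+, against 19.3, 17.3 and 21.8 FPKM in Epor-eGFP- libraries, and its 95% interval for the log2 fold change ran from −0.30 to 0.50.

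Psap, Asah1 and Smpd1, which act in the breakdown of sphingolipids, had no call in either fit. Psap encodes prosaposin, the precursor of saposins, which present sphingolipids to their hydrolases. It was at 2152, 1853 and 3134 FPKM in Epor-eGFP+ libraries, against 2339, 2098 and 3080.2 FPKM in Epor-eGFP- libraries, and number 2 was highest in both groups. Asah1, acid ceramidase, was at 98.8, 87.7 and 149 FPKM in Epor-eGFP+, against 113, 103 and 132 FPKM in Epor-eGFP- libraries. Smpd1, acid sphingomyelinase, was at 16.9, 16.0 and 19.1 FPKM in Epor-eGFP+, against 18.2, 18.0 and 18.0 FPKM in Epor-eGFP- libraries, with an interval from −0.25 to 0.13. The groups overlapped in all 3 of these genes, and their intervals do not show that the levels were equal: that of Psap ran from −0.64 to 0.46 and that of Asah1 from −0.56 to 0.39. Ppt1, the thioesterase that removes palmitate from proteins, was at 48.8, 49.3 and 51.7 FPKM in Epor-eGFP+, against 56.4, 55.4 and 65.9 FPKM in Epor-eGFP- libraries. These groups did not overlap, and the call came only with the block (log2 fold change −0.24, SE 0.09, limma adjusted p = 0.0541, and 0.0236 with the replicate block). Exons of Ppt1 share bases with Cap1 on the other strand, which was at 191, 201 and 199 FPKM in Epor-eGFP+, against 362, 362 and 362 FPKM in Epor-eGFP- libraries. No source used here says that strand was kept, so reads of the shared bases cannot be told apart. In all, 9 of the 31 genes share exon bases with another annotated gene, 3 of them with a gene of the deposited table. The partners of Hexa, Sgsh, Arsb, Npc1, Grn and Lamp1 are not in that table, so their levels are unknown.

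Of the 10 glycosidases, Gaa and Glb1 rose, Manba fell and 7 had no call. Gaa (chr11:119267887-119285454, plus strand) encodes acid alpha-glucosidase, which degrades glycogen in the lysosome. Its FPKM was 38.2, 30.7 and 45.8 in Epor-eGFP+ libraries 0 to 2, against 18.8, 19.0 and 17.7 in Epor-eGFP- libraries 0 to 2. The Epor-eGFP- libraries were nearly level while the Epor-eGFP+ libraries spread, all above them (log2 fold change 0.99, SE 0.14, limma adjusted p = 0.00186). Gaa was the only one of the 31 genes to pass in every one of the 18 alternative fits, with a limma adjusted p of at most 0.0463. Glb1 (chr9:114401076-114474898, plus strand), beta-galactosidase, which takes galactose from gangliosides and keratan sulfate, was at 35.1, 30.0 and 43.7 FPKM in Epor-eGFP+, against 25.6, 27.4 and 24.3 FPKM in Epor-eGFP- libraries (log2 fold change 0.46, SE 0.14, limma adjusted p = 0.0270). Its exons share bases with Tmppe on the same strand, which was at 5.05 to 6.22 FPKM in Epor-eGFP+, against 5.23 to 7.12 FPKM in Epor-eGFP- libraries. The Glb1 call was lost without Epor-eGFP+ library 0 (limma adjusted p = 0.0718), without Epor-eGFP- library 0 (0.0787) and without Epor-eGFP- library 2 (0.0793). It was also lost without both libraries numbered 0 (limma adjusted p = 0.177) and without both numbered 2 (0.0721).

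Hexa and Naglu passed with the block only. Hexa, the alpha chain of beta-hexosaminidase, which acts after Glb1 in ganglioside breakdown, was at 224, 196 and 342 FPKM in Epor-eGFP+, against 161, 172 and 216 FPKM in Epor-eGFP- libraries. Each Epor-eGFP+ library exceeded the Epor-eGFP- library of its number, while the groups overlapped (log2 fold change 0.44, SE 0.22, limma adjusted p = 0.131, and 0.0196 with the replicate block). Naglu, alpha-N-acetylglucosaminidase of heparan sulfate breakdown, was at 19.8, 14.5 and 24.3 FPKM in Epor-eGFP+, against 14.6, 13.5 and 13.7 FPKM in Epor-eGFP- libraries (log2 fold change 0.43, SE 0.17, limma adjusted p = 0.0722, and 0.0485 with the replicate block). Its lowest Epor-eGFP+ library lay inside the Epor-eGFP- range.

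Man2b1, Manba and Fuca1, which take mannose and fucose from glycoprotein chains, were each lower in Epor-eGFP+ in all 3 pairs of numbers. Man2b1, lysosomal alpha-mannosidase, was at 177, 138 and 229 FPKM in Epor-eGFP+ libraries, against 258, 245 and 244 FPKM in Epor-eGFP- libraries, without overlap (log2 fold change −0.49, SE 0.17, limma adjusted p = 0.0538, and 0.0422 with the replicate block). Manba (chr3:135485611-135571404, plus strand), beta-mannosidase, was at 16.5, 15.1 and 14.6 FPKM in Epor-eGFP+, against 18.4, 17.3 and 18.5 FPKM in Epor-eGFP- libraries, also without overlap (log2 fold change −0.22, SE 0.07, limma adjusted p = 0.0454). The difference in Manba was small and lost its call in 13 of 18 alternative fits, among them those without any single library, where limma adjusted p ran from 0.0566 to 0.136. Fuca1, alpha-fucosidase, was at 29.3, 26.5 and 34.9 FPKM in Epor-eGFP+, against 32.5, 30.9 and 38.8 FPKM in Epor-eGFP- libraries, with overlap (log2 fold change −0.17, SE 0.13, limma adjusted p = 0.296, and 0.0387 with the replicate block).

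Gusb, Neu1 and Gla had no call in either fit. Gusb, beta-glucuronidase, was at 74.7 to 79.8 FPKM in Epor-eGFP+, against 73.1 to 81.8 FPKM in Epor-eGFP- libraries, with the narrowest interval of the set, from −0.17 to 0.17 on the log2 scale. Neu1, the sialidase, was at 31.6 to 35.4 FPKM in Epor-eGFP+, against 30.7 to 38.1 FPKM in Epor-eGFP- libraries, with an interval from −0.21 to 0.27. Gla, alpha-galactosidase A, was at 6.67 to 7.78 FPKM in Epor-eGFP+, against 6.13 to 7.00 FPKM in Epor-eGFP- libraries, with an interval from −0.13 to 0.30.

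Of the 3 sulfatases of glycosaminoglycan breakdown, Ids fell, and Arsb and Sgsh passed with the block only. Ids (chrX:70343069-70365084, minus strand), which removes sulfate from iduronate, was at 11.6, 12.2 and 16.4 FPKM in Epor-eGFP+ libraries 0 to 2 against 18.5, 18.4 and 24.3 FPKM in Epor-eGFP- libraries 0 to 2 (log2 fold change −0.57, SE 0.16, limma adjusted p = 0.0224). All Epor-eGFP+ libraries lay below all Epor-eGFP- libraries. The call was lost without Epor-eGFP+ library 0 (limma adjusted p = 0.0800), without Epor-eGFP+ library 1 (0.0618) and without Epor-eGFP- library 2 (0.0610). It was also lost without both libraries numbered 0 (limma adjusted p = 0.136) and without both numbered 1 (0.0774). Arsb, which acts on dermatan and chondroitin sulfate, was at 139.7, 121 and 104 FPKM in Epor-eGFP+, against 99.4, 98.2 and 71.6 FPKM in Epor-eGFP- libraries, and within both groups library 2 was the lowest. The groups did not overlap, and Arsb passed with the block (log2 fold change 0.44, SE 0.16, limma adjusted p = 0.0551, and 0.00565 with the replicate block). Sgsh, the heparan N-sulfatase, was at 10.9, 8.24 and 14.8 FPKM in Epor-eGFP+, against 12.9, 11.2 and 16.2 FPKM in Epor-eGFP- libraries, with overlap (log2 fold change −0.25, SE 0.21, limma adjusted p = 0.365, and 0.0425 with the replicate block).

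Of the 8 membrane proteins, Cln3 and Lamp2 fell (25.0%, against 26.3% of all genes tested) and 6 had no call. None rose by the adjusted test, where 22.7% of all genes tested did, or at an unadjusted p below 0.05. Cd63 was called higher with the block. Cln3 (chr7:126571207-126585817, minus strand) encodes a multispanning protein whose loss causes juvenile neuronal ceroid lipofuscinosis in humans. It was at 17.0, 13.2 and 19.0 FPKM in Epor-eGFP+ libraries 0 to 2, against 28.2, 26.1 and 29.0 FPKM in Epor-eGFP- libraries 0 to 2, with no overlap (log2 fold change −0.74, SE 0.13, limma adjusted p = 0.00420). Its exons share bases with Apobr on the other strand, which was at 35.3, 27.4 and 45.0 FPKM in Epor-eGFP+, against 99.5, 86.4 and 91.0 FPKM in Epor-eGFP- libraries, a larger difference in the same direction (log2 fold change −1.36, SE 0.17, limma adjusted p = 0.00128). The part of Apobr reads in the Cln3 values was not tested. Without both libraries numbered 0, limma adjusted p was 0.0661 for Cln3.

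Lamp1 and Lamp2 encode the 2 most abundant kinds of glycoprotein of the lysosomal membrane, and their values differed in pattern. Lamp2 (chrX:38401357-38456454, minus strand) was at 94.1, 102 and 109 FPKM in Epor-eGFP+, against 126, 123 and 136 FPKM in Epor-eGFP- libraries, with tight groups that did not overlap (log2 fold change −0.33, SE 0.08, limma adjusted p = 0.0157). Its call was lost without Epor-eGFP+ library 0 (limma adjusted p = 0.0677), without both libraries numbered 0 (0.177) and without both numbered 1 (0.0562). Lamp1 was at 414, 337 and 633 FPKM in Epor-eGFP+, against 422, 372 and 492 FPKM in Epor-eGFP- libraries, and the Epor-eGFP+ libraries spanned the whole Epor-eGFP- range. It had no call (log2 fold change 0.06, SE 0.23, limma adjusted p = 0.833), and the log2 fold change was −0.19 without Epor-eGFP+ library 2. Whether the 2 genes differed in their response was not tested.

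Cd63, a tetraspanin of late endosomes and lysosomes, was at 634, 521 and 542 FPKM in Epor-eGFP+, against 523, 464 and 333 FPKM in Epor-eGFP- libraries (log2 fold change 0.38, SE 0.18, limma adjusted p = 0.113, and 0.0486 with the replicate block). Laptm5, a lysosomal membrane protein of blood cells, was at 527, 480.0 and 702 FPKM in Epor-eGFP+, against 719, 664 and 868 FPKM in Epor-eGFP- libraries (log2 fold change −0.41, SE 0.17, limma adjusted p = 0.0844, and 0.00988 with the replicate block). Cd63 was higher and Laptm5 lower in all 3 pairs of numbers, and the groups overlapped in both genes. Scarb2, the receptor that brings beta-glucocerebrosidase to the lysosome, was at 41.8 to 73.0 FPKM in Epor-eGFP+, against 39.3 to 57.6 FPKM in Epor-eGFP-. Mcoln1, a calcium channel of the lysosomal membrane, was at 10.9 to 15.0 FPKM in Epor-eGFP+, against 10.6 to 11.6 FPKM in Epor-eGFP- libraries. Ctns, the cystine exporter, was at 9.15 to 12.2 FPKM in Epor-eGFP+, against 8.63 to 11.7 FPKM in Epor-eGFP- libraries. These 3 had no call in either fit, with limma adjusted p of 0.0968, 0.0945 and 0.262 with the replicate block.

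**Figure D4:**
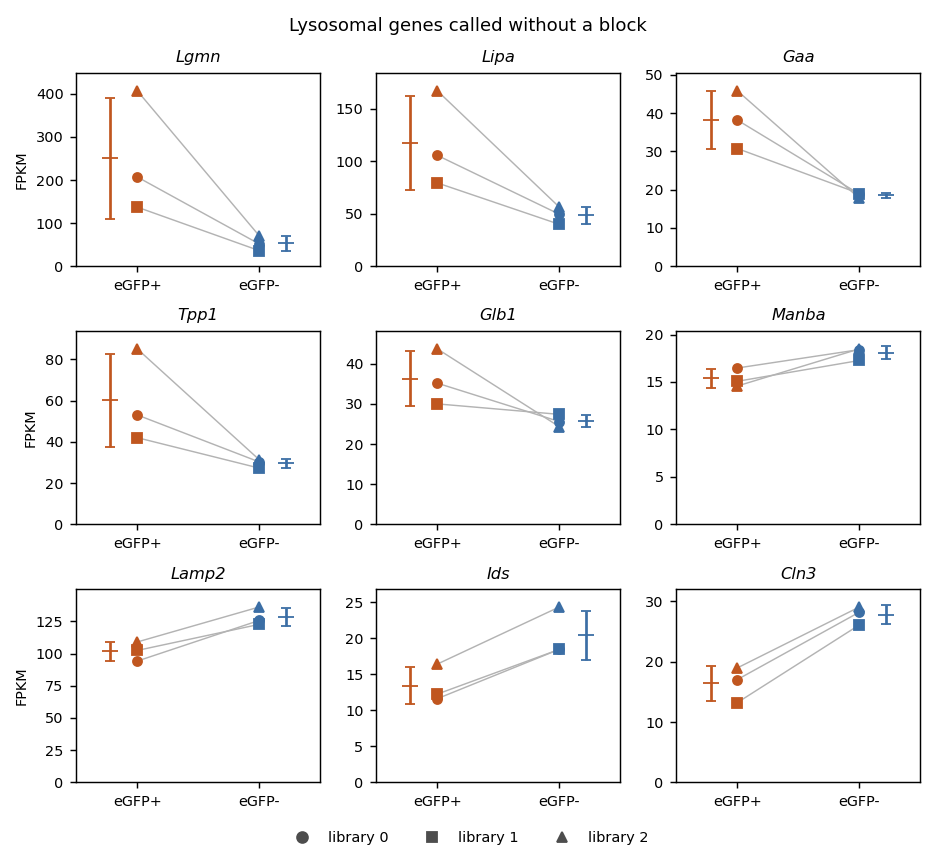
FPKM of the 9 lysosomal genes called without a block, in Epor-eGFP+ (orange, left) and Epor-eGFP- (blue, right) libraries, with grey lines joining libraries of the same number and bars for the mean ± SD of 3 libraries. Lgmn, Lipa, Gaa, Tpp1 and Glb1 are higher and Manba, Lamp2, Ids and Cln3 lower in Epor-eGFP+ in every pair, and library 2 is the top Epor-eGFP+ library in all but Manba.

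Across the set, the Epor-eGFP+ libraries differed among themselves in a shared order. Within Epor-eGFP+, 26 of the 31 genes were highest in library 2 (83.9%, against 33.8% of all genes tested), and 23 were lowest in library 1 (74.2%, against 33.1%). Within Epor-eGFP-, 23 were highest in library 2 (74.2%, against 38.5%). The 5 genes not highest in Epor-eGFP+ library 2 were Arsb, Cd63, Gla and Manba, highest in library 0, and Gusb, highest in library 1. The median coefficient of variation over the 3 Epor-eGFP+ libraries was 19.7% for the 31 genes and 9.44% for all genes tested, and over the Epor-eGFP- libraries it was 12.6% for the 31 genes and 9.09% for all genes tested. Counts and medians of this kind describe these libraries, since genes are not replicates. Epor-eGFP+ library 2 and library 1 also held the highest and the lowest macrophage marker sums, and the part of macrophage content in this order was not tested.

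**Figure D5:**
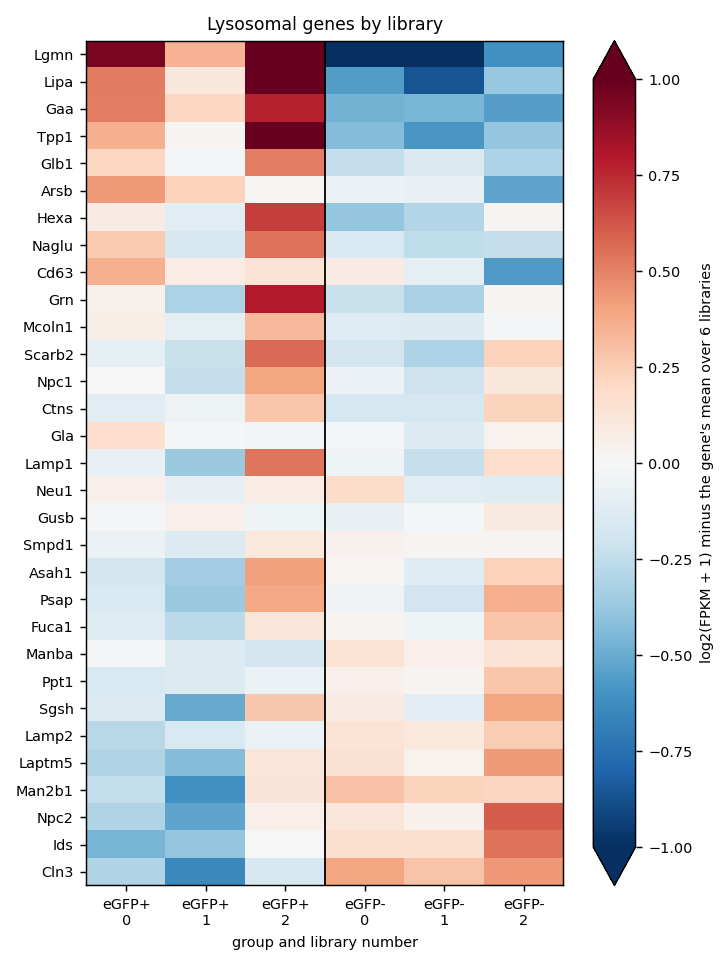
Each row is 1 of the 31 lysosomal genes, ordered by log2 fold change, and each column a library; colour gives log2(FPKM + 1) minus the gene's mean over the 6 libraries, shown within ±1. Epor-eGFP+ library 2 is the reddest Epor-eGFP+ column in most rows, and Epor-eGFP- library 2 is redder than its group in many of the lower rows.

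The rest of the lysosomal machinery, 134 genes in 6 lists, was set beside these genes. Of 132 tested, 36 were higher (27.3%), 21 lower (15.9%) and 75 had no call, with a median log2 fold change of 0.10. Of all genes tested 22.7% were higher and 26.3% lower, and each count of a list below is to be read beside these shares. Of 33 other hydrolases, 12 were higher (36.4%), 9 lower (27.3%) and 12 had no call. Acp5, tartrate-resistant acid phosphatase, had the largest rise, at 142, 85.4 and 101 FPKM in Epor-eGFP+, against 23.0, 12.6 and 21.5 FPKM in Epor-eGFP- libraries (log2 fold change 2.47, SE 0.26, limma adjusted p = 0.000800). Acp2, the lysosomal acid phosphatase, rose by 1.77 and Hyal1, a hyaluronidase, by 1.39 on the log2 scale. Hyal1 was low, at 2.15, 0.713 and 3.56 FPKM in Epor-eGFP+, against 0.101 to 0.118 FPKM in Epor-eGFP- libraries. At such levels the log2 fold change depends on the pseudocount of 1. Hgsnat, the acetyltransferase of heparan sulfate breakdown, fell, at 21.4, 23.7 and 26.1 FPKM in Epor-eGFP+, against 46.1, 49.6 and 59.6 FPKM in Epor-eGFP- libraries (log2 fold change −1.09, SE 0.12, limma adjusted p = 0.000846). Naaa, an amidase of ethanolamides, had a log2 fold change of −1.09 and Ggh, which trims glutamates from folates, one of −1.09, and both passed the test. The count of higher genes was 7 without Epor-eGFP- library 0 and 7 without Epor-eGFP- library 1. Acp5, Ctsk and Atp6v0d2 also stand in the osteoclast list given above, and their part in the counts was not tested. Like Hyal1, Ctsk (0.260 to 0.440 FPKM) and Atp6v0d2 (0.153 to 0.384 FPKM) were low in Epor-eGFP- libraries.

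Of 30 other membrane proteins tested, 6 were higher and 3 lower, and 10 were higher with the replicate block, without Epor-eGFP+ library 1 or with a common total. The largest log2 fold changes among the calls were those of Gpnmb (1.87), Laptm4b (1.17) and Mfsd12 (0.68) upward and Sidt2 (−0.64), Ostm1 (−0.41) and Slc38a9 (−0.37) downward. Of 18 subunits of the proton pump that acidifies the lysosome, 4 were higher (22.2%), led by Atp6v0d2 (2.63), Atp6ap2 (0.68) and Atp6v1c1 (0.34). None was lower by limma, where 2 were lower at an unadjusted p below 0.05 and 3 with the replicate block (1 without Epor-eGFP+ library 2). Of 12 cathepsins, 6 were higher and 1 lower, with Ctsk (4.65), Ctsf (2.189) and Ctsd (1.89) at the top and Ctsh (−0.80) as the lower one, and 2 were lower with the replicate block. Ctsd, an aspartic protease, reached 1133, 634 and 2208 FPKM in Epor-eGFP+ libraries, against 349.6, 283 and 312 FPKM in Epor-eGFP-, in the order of Lgmn within Epor-eGFP+.

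Of 18 genes that target enzymes to the lysosome, 6 were higher (33.3%) and 3 lower (16.7%). Gga2 (0.68), Ap1b1 (0.58) and Gnptg (0.54), an adaptor, an adaptor subunit and a subunit of the enzyme that starts the mannose 6-phosphate tag, were the largest rises. Gga3 (−0.37), Ap1m1 (−0.34) and Gga1 (−0.25) were lower, a count of 3 that was 1 under each of the 3 other scalings, without Epor-eGFP+ library 0 and without Epor-eGFP- library 0. Of 21 genes of the TFEB family and of the mTORC1 machinery that controls it, 2 were higher (9.52%), Rragd (1.26) and Fnip2 (0.35), and 5 were lower (23.8%). The count of higher genes was 1 without Epor-eGFP+ library 0 or 2, without Epor-eGFP- library 0 or 1 and with a minimum mean of 5 FPKM, and 0 with quantile normalization.

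Tfeb itself fell, at 23.0, 21.6 and 24.2 FPKM in Epor-eGFP+ libraries 0 to 2 against 42.5, 36.9 and 45.4 FPKM in Epor-eGFP- libraries 0 to 2 (log2 fold change −0.83, SE 0.09, limma adjusted p = 0.000971). Every Epor-eGFP+ library was below every Epor-eGFP- library. Tfe3, a relative that binds the same element, was at 20.9, 18.7 and 26.8 FPKM in Epor-eGFP+, against 24.1, 23.9 and 31.4 FPKM in Epor-eGFP- libraries, with overlap (log2 fold change −0.25, SE 0.16, limma adjusted p = 0.224, and 0.0179 with the replicate block). Mitf, another relative, was at 4.11, 4.02 and 5.50 FPKM in Epor-eGFP+, against 2.67, 3.16 and 3.84 FPKM in Epor-eGFP- libraries, without overlap (log2 fold change 0.39, SE 0.15, limma adjusted p = 0.0640, and 0.0141 with the replicate block). Mlst8, a subunit of mTORC1, had a log2 fold change of −0.66 and Lamtor4, a subunit of the Ragulator complex that anchors it to the lysosome, one of −0.39, and both passed the test. The counts of all 6 lists without both libraries numbered 0 were lower: 3, 2, 2, 2, 1 and 0 genes were higher in the order given. RNA levels of these factors do not give their activity, which depends on where the protein lies in the cell.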

How the data were processed

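RNA of 3 libraries of F4/80+ Epor-eGFP+ and 3 of F4/80+ Epor-eGFP- bone marrow cells was sequenced from TruSeq v2 libraries, per the labels' protocols. The authors deposited 1 table of FPKM per gene and library, and Cufflinks 2.2.1, TopHat2 2.1.0, Trimmomatic 0.35, bcl2fastq 2.19.1.403 and mm10 are named in the submitters' processing notes without role or order. FPKM hides the number of reads, so the depth is unknown and no count model or counting interval was used. The annotation, any scaling between libraries and the strand setting are not stated there. Columns carry a group and a number from 0 to 2, used here as the library number, while the sample titles count from 1 to 3.

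Log2(FPKM + 1) of the genes whose mean reached 1 FPKM was tested with limma 3.58.1 in R 4.3.3 (empirical Bayes with trend, two-sided, Benjamini-Hochberg over all genes tested, threshold 0.05). The procedure was also run on simulated data, with 200 genes changed and noise drawn separately for each library. Same-numbered libraries did not deviate together there, unlike in these data. Intervals are at 95%. A single gene was also compared by an exact permutation test. The numbers in the column names were used as a replicate block in a second fit, because same-numbered libraries deviated together from their group means (r = 0.25, 0.38 and 0.35 over genes for numbers 0, 1 and 2, and −0.39 to 0.07 for other pairs). No label says what a number marks, so the block was chosen from these same data. Deviations from a group mean cancel within a group, so the values for other pairs are not independent of those for same numbers.

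The 31 genes and all lists were chosen with earlier results of these data known. All 31 genes are named, and from each other lysosomal list up to 3 called genes with the largest log2 fold change in each direction, together with Tfeb, Tfe3 and Mitf. Promoter sequences come from RefSeq on GRCm38.p6, matched by symbol for 29 of 31 genes. Alternatives covered pseudocounts of 0.1 and 0.5, no filter and a filter at 5 FPKM, 3 other scalings, no trend, the block and 9 sets with libraries left out.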

Additional observations from a re-analysis of the deposited data

How the results depend on the processing

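With the replicate block 9 of the lysosomal genes were higher and 10 lower. In this balanced design the block leaves each log2 fold change as it is and changes only its error. In the 9 fits without 1 library or without both of a number, the count of higher genes ran from 1 to 6 and that of lower genes from 0 to 6. The median log2 fold change of the 31 genes ran from −0.070 to 0.12 in these fits. Over all genes tested the same fits gave 492 to 2479 higher and 921 to 2695 lower genes; 1634 were higher without Epor-eGFP+ library 0, and 492 were higher and 921 lower without both libraries numbered 0. A common total gave 3053 higher and 2082 lower genes over all genes tested (59.5% of calls higher, against 46.3% without rescaling), and 70.0% of the calls among the lysosomal genes were then higher (55.6% without rescaling). No lysosomal gene called without the block changed sign in any of the 18 alternatives, but most of these could not have changed one. In each of these genes the groups did not overlap, so leaving out libraries cannot reverse the difference. Pseudocounts, filters, the trend and the block keep the sign as well. Only the other scalings could have changed it, and they did not. Pseudocounts and filters changed no call among the 31 genes, and Manba lost its call without the trend.

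Changes of sign were seen in 9 genes without a call. The cause was not tested for those outside the fit with a common total. With libraries left out, the log2 fold change ran from −0.070 to 0.33 for Scarb2, −0.073 to 0.24 for Npc1, −0.032 to 0.22 for Ctns, −0.19 to 0.27 for Lamp1, −0.052 to 0.13 for Neu1, −0.041 to 0.059 for Gusb, −0.31 to 0.073 for Asah1 and −0.31 to 0.071 for Psap. Without both libraries numbered 2 it was −0.084 for Lamp1, −0.052 for Neu1 and 0.059 for Gusb, and without Epor-eGFP- library 2 it was −0.021 for Neu1 and 0.039 for Gusb. With a common total it was 0.096 for Gusb, 0.036 for Smpd1, 0.019 for Asah1 and 0.0097 for Psap. Total FPKM averaged 479184 in Epor-eGFP+ and 513773 in Epor-eGFP- libraries, so a common total moves log2 fold changes upward. Their median over all genes tested was −0.012 without rescaling and 0.077 with a common total. For Gusb the log2 fold change was 0.058 with a common upper quartile. With quantile normalization it was 0.053 for Gusb and 0.0031 for Asah1.

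With 3 libraries a group, an exact permutation test cannot go below 0.1, and the 95% intervals of the 22 genes without a call reached from −0.98 to 0.99, so differences of that size could go uncalled. FPKM does not show how many reads stand behind a value.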
